A study of Mus musculus with 8 samples.

Results

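A group of 9 genes of the interleukin-6 family were followed through the cell classes of mouse femoral stroma, comparing intact bone with bone under repair. The members were 4 ligands (Il6, Lif, Il11 and Clcf1), 4 receptor chains (Il6st, Osmr, Lifr and Il6ra) and the feedback inhibitor Socs3, chosen by name from the 26180 genes found in at least 3 cells, and all 9 were present in the tables. The Control group consisted of bone stromal cells from the unfractured femur of 12-week-old female C57BL/6 mice. The Fracture group came from females of that strain whose left leg was broken at 10 weeks of age by 3-point bending, stabilised with a nail in the marrow cavity and collected at day 14. The labels name no transgene in either group, and all suspensions had been depleted of lineage-positive, CD45+ and CD117+ cells with magnetic beads. Each group held 2 cell preparations with 2 droplet libraries apiece, which were summed, so n = 2 per group. The study calls its replicates independent, but nothing in the labels ties a preparation to separate animals. The p-values therefore measure the spread between these preparations, which may be technical.

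Cytokines of this family signal through receptor complexes that share the chain encoded by Il6st, also called gp130. Il6 and Il11 bind their own alpha chains, Il6ra for Il6, and then join Il6st, whereas Lif and oncostatin M assemble Il6st with Lifr or Osmr. The complexes activate Janus kinases and STAT transcription factors, mainly Stat3, which induce Socs3, and Socs3 in turn binds Il6st and limits the signal. In bone, members of the family are known to act on osteoblasts, osteoclast formation and chondrocytes.

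The libraries held 56543151 to 89126291 UMIs, each UMI standing for 1 captured transcript, and 45328 of 48903 barcodes passed the filters. The median depth per kept cell was 7170 to 8685 UMIs in the Control libraries and 10640 to 12708 in the Fracture libraries. The smallest deposited barcode held 1 UMI in the Control group and 1929 in the Fracture group, and no pair of libraries shared more than 23 barcodes. Clusters were named from marker genes, which gave chondrocyte-like (2716 Control and 13905 Fracture cells), osteoblast-like (2735 and 3452), bone marrow stromal cell-like or BMSC-like (4298 and 2168), fibroblast-like (545 and 1456), endothelial-like (2888 and 2615) and smooth muscle-like cells (951 and 336). Clustering of the mesenchymal cells again gave dpMSC-like (2925 and 816) and mpMSC-like cells (1379 and 1041), named after the diaphyseal and metaphyseal stromal cells of the study. The mpMSC-like cluster was led by Mmp9, which the study reports in septoclasts. It carried Hey1, Mmp13 and Mmp9 at 2-fold or more over the other mesenchymal cells, but not Postn or Heyl. Several labels need care, above all BMSC-like and dpMSC-like. The 7 BMSC markers, among them Cxcl12, Lepr and Adipoq, summed to 26619 and 27922 CPM (the UMI count of a gene scaled to a fixed library total) in the Control BMSC-like cells and to 1980 and 2263 CPM in the Fracture BMSC-like cells. The 5 dpMSC markers, 4 of them shared with that list, were likewise lower in dpMSC-like cells, from 42303 and 37235 CPM in sum to 2436 and 3279. At a clustering resolution of 0.2 the Fracture dpMSC-like cells numbered 212 and 256 rather than 388 and 428. The fibroblast markers summed to 21271 and 23327 CPM in Control and 7795 and 8410 in Fracture fibroblast-like cells. The osteoblast markers summed to 105285 and 122741 CPM in Control and 44196 and 57200 in Fracture osteoblast-like cells. Leftover blood cells formed erythroid-like, megakaryocyte-like, monocyte-like and granulocyte-like clusters, and the last was led, over both groups together, by the basophil genes Prss34, Cpa3 and Mcpt8.

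On GRCm38, Osmr (chr15:6813577-6874969, minus strand) and Lifr (chr15:7090614-7197489, plus strand) were neighbours, separated by 215644 bases with 0 protein-coding genes between them. Il6 lay at chr5:30013114-30019981, Lif at chr11:4257557-4272514, Il6st at chr13:112464070-112510086 and Clcf1 at chr19:4214238-4223490, each on the plus strand. Il11 (chr7:4772373-4782859), Il6ra (chr3:89864059-89913196) and Socs3 (chr11:117966079-117970047) lay on the minus strand. The annotation placed Gm42809 on the strand opposite Il6ra, and AC109138.7 on the strand of Clcf1, so counts of these 2 members could include reads of an overlapping gene.

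Promoter windows of 250 bases before the annotated start were available in RefSeq (GRCm38.p6) for 8 of the 9 members, 10 windows in all. They were searched for the STAT motif TTCNNNGAA and for the AP-1 motif, TGACTCA or TGAGTCA. Each motif reads the same on both strands. Among all 32851 windows of this length, 7.02% held the STAT motif and 4.46% the AP-1 motif. The STAT motif was found in 1 member window, that of Socs3, 154 bases before the start, and the AP-1 motif in 3, those of Il6 (249 bases before the start), Lif (228) and 1 of 2 starts of Il11 (98). The 4 windows with a match are shown, so that the matched letters can be seen in place, with the motif in capitals and the sequence written 5′ to 3′ on the strand of the gene. They span chr11:117969367-117969616 for Socs3 (minus strand), chr5:30012864-30013113 for Il6 (plus strand), chr11:4257318-4257567 for Lif (plus strand) and chr7:4778142-4778391 for Il11 (minus strand).
Socs3: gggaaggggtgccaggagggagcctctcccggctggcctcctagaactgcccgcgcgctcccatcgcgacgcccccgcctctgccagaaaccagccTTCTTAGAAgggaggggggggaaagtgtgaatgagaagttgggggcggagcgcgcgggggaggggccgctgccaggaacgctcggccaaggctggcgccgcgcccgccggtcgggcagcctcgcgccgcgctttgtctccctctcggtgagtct
Il6: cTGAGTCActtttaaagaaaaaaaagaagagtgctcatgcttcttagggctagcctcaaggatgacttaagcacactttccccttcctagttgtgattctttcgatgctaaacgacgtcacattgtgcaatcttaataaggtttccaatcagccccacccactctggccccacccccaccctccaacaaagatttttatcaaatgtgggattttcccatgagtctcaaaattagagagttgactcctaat
Lif: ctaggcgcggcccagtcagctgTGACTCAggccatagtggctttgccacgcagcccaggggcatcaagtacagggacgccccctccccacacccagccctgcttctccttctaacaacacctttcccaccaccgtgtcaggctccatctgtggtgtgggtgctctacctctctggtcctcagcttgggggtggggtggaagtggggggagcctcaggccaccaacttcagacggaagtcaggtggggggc
Il11: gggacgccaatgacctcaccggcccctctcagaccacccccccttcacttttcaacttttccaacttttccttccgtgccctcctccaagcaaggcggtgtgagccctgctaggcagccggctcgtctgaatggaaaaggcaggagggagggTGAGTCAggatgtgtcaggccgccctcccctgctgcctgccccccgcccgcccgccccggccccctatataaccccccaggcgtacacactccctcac
A match of letters is a description of the sequence, and binding of a factor was not measured.

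For each class, Fracture was compared with Control on UMI counts summed per preparation, with the quasi-likelihood test of edgeR and Benjamini-Hochberg adjustment over all genes tested in the class. A member was called at an adjusted p under 0.05. Levels are given as CPM scaled by TMM within the class unless named plain CPM, which are scaled to the UMI total of the class alone, and differences as log2 fold changes ± SE. Over the 6 classes outside the blood, 15 of 54 member-by-class pairs fell, 10 rose, 23 were not called and 6 held too few UMIs to be tested. The receptor chains made up 14 of the 15 falls, while 7 of the 10 rises belonged to ligands and Socs3. Of the 9 members, 5 were called in chondrocyte-like cells, where 37.4% of all tested genes were called, 3 in osteoblast-like (16.5% of genes) and 5 in BMSC-like cells (51.8%). In fibroblast-like cells 3 were called (16.4%), in endothelial-like cells 5 (36.2%) and in smooth muscle-like cells 4 (22.1%). Among the subclasses, 5 were called in dpMSC-like (53.6%) and 4 in mpMSC-like cells (25.7%). In BMSC-like and dpMSC-like cells the 5 of 9 members called lay near the share of all genes called there.

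These calls depended on having both Fracture preparations. Over the 6 classes and both subclasses 34 pairs were called. Leaving out Fracture preparation 1 or Fracture preparation 2 lost most of them, with no change of direction. These fits also lost most calls over all genes in every class but dpMSC-like, so the loss is not particular to the members. The log2 fold changes were 2.95 and 3.09 beside 3.03 for Socs3 in osteoblast-like cells. For Il11 in chondrocyte-like cells they were 1.23 and 0.77 beside 0.99. The calls held in each alternative listed in the processing section were those of Lifr in chondrocyte-like and dpMSC-like cells, and those of Il6st and of Lif in BMSC-like and dpMSC-like cells. A block for the preparation number, another of these alternatives, lost 8 calls, which the last section names. Leaving out Control preparation 1 lost 2 calls, and leaving out Control preparation 2 lost 1.

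**Figure D1:**
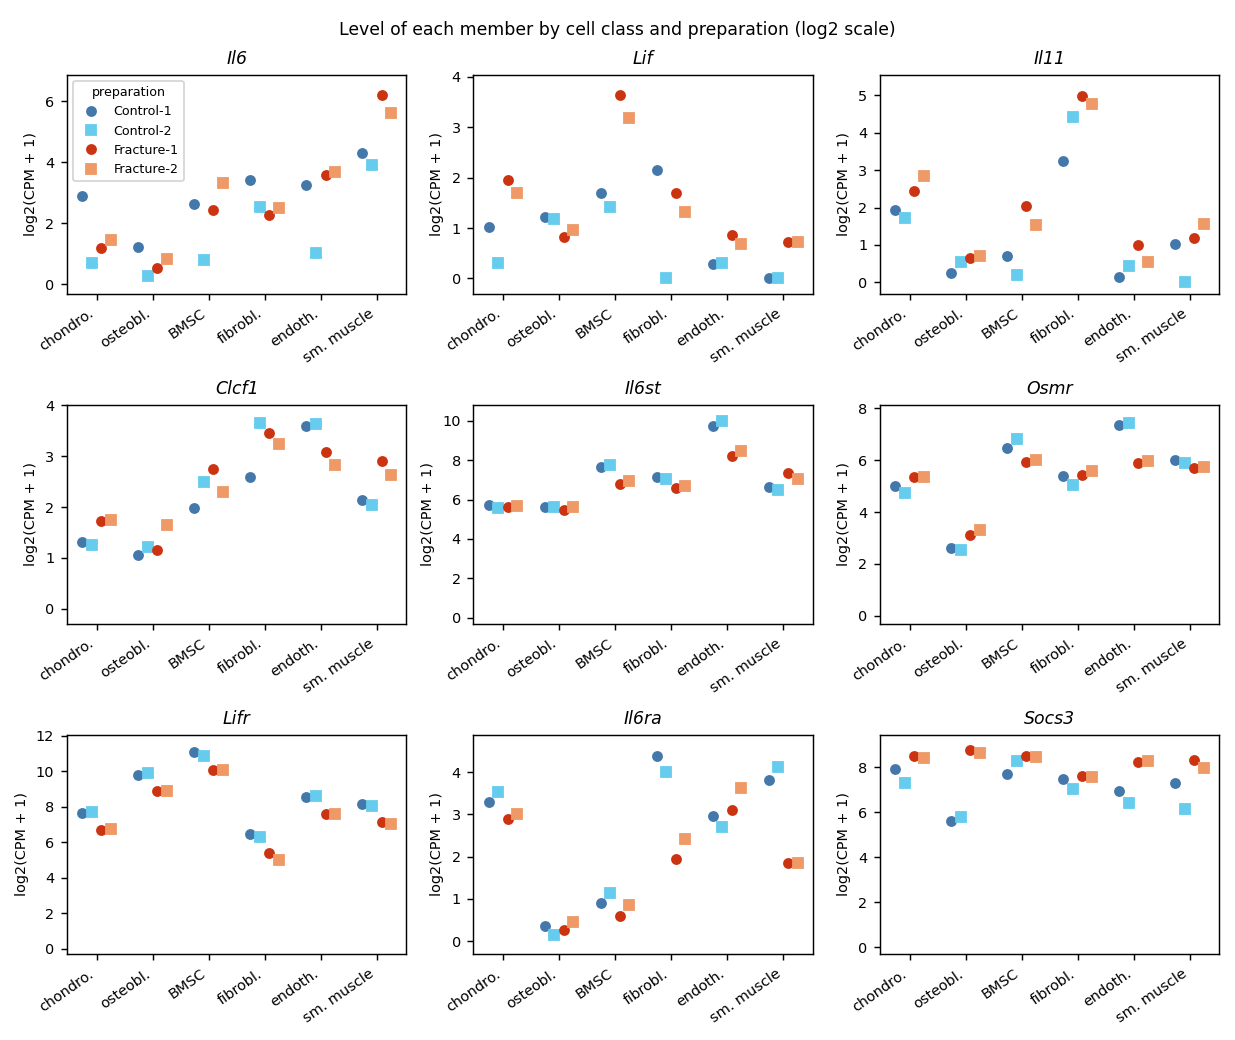
Level of each member in the 6 classes outside the blood, as log2(CPM + 1) on the vertical axis, with 1 point per preparation (blue Control, red and orange Fracture). The Fracture points of Lifr lie below the Control points in all 6 classes, and Il6 is highest in smooth muscle-like cells in both groups.

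Il6, the ligand that names the family, rose in smooth muscle-like cells, the class with the highest Il6 of the 6 in both groups. There it measured 18.7 and 14.1 CPM in Control and 71.9 and 47.6 CPM in Fracture, a 3.60-fold rise (log2 fold change 1.85 ± 0.28, edgeR adjusted p = 0.014). Both Fracture values lay above both Control values. The counts behind them were 71 and 18 UMIs in Control and 111 and 73 UMIs in Fracture. With no thinning, Il6 was present in 19 of the 742 and 2 of the 209 Control cells, against 42 of the 171 and 28 of the 165 Fracture cells, whose median depth was 4583 and 5698 UMIs in Control and 7475 and 7768 in Fracture. After each cell was thinned to 1000 UMIs the shares were 0.69% and 0.96% against 4.09% and 4.85%. The Control level, the fold and the rank in Control thus rest on few cells. In dpMSC-like cells Il6 also rose, from 5.74 and 0.79 CPM to 12.3 and 21.6 CPM (log2 fold change 2.43 ± 0.77, edgeR adjusted p = 0.045). This call was lost with the DESeq2 test (adjusted p = 0.094), without the filter on low counts (edgeR adjusted p = 0.13) and at a clustering resolution of 0.2 (0.056).

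Control preparation 1 carried more Il6 than Control preparation 2 in each of the 6 classes. In chondrocyte-like cells the Control values were 6.43 and 0.61 CPM against 1.28 and 1.73 CPM in Fracture. In endothelial-like cells they were 8.44 and 1.06 CPM against 10.96 and 11.8 CPM, and in BMSC-like cells 5.26 and 0.75 CPM against 4.40 and 9.05 CPM. Osteoblast-like cells were the lowest, at 1.33 and 0.20 CPM in Control and 0.46 and 0.77 CPM in Fracture. The groups overlapped in chondrocyte-like, BMSC-like and osteoblast-like cells, and none of these comparisons was called (edgeR adjusted p = 0.24, 0.26, 0.30 and 0.76 in the order chondrocyte-like, endothelial-like, BMSC-like and osteoblast-like). Fibroblast-like cells, at 9.66 and 4.78 CPM in Control and 3.80 and 4.60 CPM in Fracture, were not called either (edgeR adjusted p = 0.14). In endothelial-like cells both Fracture values lay above both Control values. Without Control preparation 1, with the lone Control preparation assumed to vary like the Fracture group, the log2 fold change there was 3.40 (edgeR adjusted p = 3.10e-20), and the values of chondrocyte-like and osteoblast-like cells turned positive, at 1.25 and 1.59 (edgeR adjusted p = 0.077 and 0.12), and BMSC-like cells were called (3.202, edgeR adjusted p = 5.13e-05). Without Control preparation 2, on the same assumption, endothelial-like and BMSC-like cells were not called (0.44 and 0.40, edgeR adjusted p = 0.070 and 0.27), and Il6 was called lower in chondrocyte-like (−2.13, edgeR adjusted p = 3.60e-05), osteoblast-like (−1.06, 0.039) and fibroblast-like cells (−1.25, 0.0078).

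The granulocyte-like leftover cells were the main source of Il6 transcripts in the Control group. They contributed 93.6% of its 12927 Il6 UMIs, whereas in the Fracture group, with 1126 Il6 UMIs, they contributed 13.9%, endothelial-like cells 24.2%, chondrocyte-like cells 23.9%, smooth muscle-like cells 16.3% and BMSC-like cells 12.5%. Granulocyte-like cells numbered 1823 and 805 per preparation in Control and 80 and 73 in Fracture, and their plain CPM of Il6 was 586 and 306 in Control and 138 and 74.1 in Fracture. The basophil genes Prss34, Mcpt8, Cpa3 and Ms4a2 moved with it in these cells, from 42703 and 44520 plain CPM in sum to 9542 and 10112. Il6 per UMI of these 4 genes measured 0.0137 and 0.0069 in Control and 0.0145 and 0.0073 in Fracture. The whole granulocyte list, these 4 included, summed to 46319 and 49717 plain CPM in Control and 37410 and 42055 in Fracture. Basophil genes thus made up most of that sum in Control but not in Fracture, where the rest of the list was higher. The part of this change of make-up in the Il6 values was not tested. Erythroid-like cells, which should not transcribe Il6, read 4.64 and 0.77 plain CPM in Control and 1.49 and 0.36 in Fracture, with the same high Control preparation 1.

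To set the stromal values against RNA from basophils, the Il6 count per UMI of 4 basophil genes (Prss34, Mcpt8, Cpa3 and Ms4a2, a subset of the granulocyte list chosen after its values were seen) was taken from the granulocyte-like cells of each preparation and applied to the basophil UMIs found in every other class. In Control preparation 1 this ratio gave 6.01 plain CPM of Il6 in chondrocyte-like cells, where 6.91 were measured, and 1.23 in osteoblast-like cells, where 1.30 were measured. In the same preparation fibroblast-like cells measured 9.91 against 12.5, BMSC-like cells 5.56 against 2.80 and endothelial-like cells 8.76 against 4.00 at the ratio. Control preparation 2 gave 0.65 against 1.45 in chondrocyte-like cells, 0.79 against 0.40 in BMSC-like and 1.10 against 0.41 in endothelial-like cells. For smooth muscle-like cells the measured values stood above the ratio in all 4 preparations, at 18.4 against 6.97 and 14.5 against 0.43 in Control, and at 71.6 against 0.04 and 47.2 against 0.02 in Fracture. Endothelial-like cells of the Fracture group measured 10.7 and 11.2 plain CPM against 0.28 and 0.03.

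**Figure D2:**
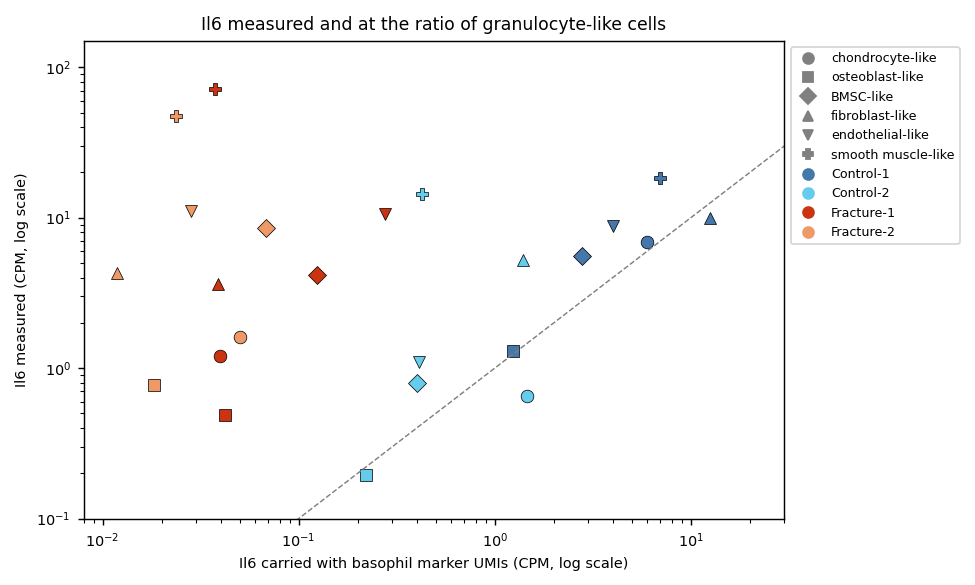
Il6 measured in each class and preparation (vertical axis, plain CPM, log scale) against the Il6 that the basophil UMIs of the same class carry at the ratio of granulocyte-like cells (horizontal axis, plain CPM, log scale), with equality as the dashed line, colour for the preparation and symbol for the class. Control preparation 1 lies near the line in chondrocyte-like and osteoblast-like cells (6.91 against 6.01 and 1.30 against 1.23), while all Fracture values and the smooth muscle-like values lie above it. Erythroid-like cells, which are not drawn, were also above equality in Fracture (1.49 against 0.08 and 0.36 against 0.02).

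Lif, whose receptor pairs Lifr with Il6st, rose in BMSC-like cells, which had the highest mean of the 6 classes in Fracture. It measured 2.26 and 1.65 CPM in Control and 11.4 and 8.04 CPM in Fracture, a 5.02-fold rise (log2 fold change 2.33 ± 0.28, edgeR adjusted p = 0.0042). Lif also rose in dpMSC-like cells, which came from clustering the mesenchymal cells again, from 1.46 and 1.70 CPM to 22.4 and 14.5 CPM, which is 11.9-fold (log2 fold change 3.58 ± 0.31, edgeR adjusted p = 0.00084). In both comparisons the groups did not overlap. At a clustering resolution of 0.2 the dpMSC-like rise was 7.33-fold (edgeR adjusted p = 0.0015). mpMSC-like cells held too few UMIs for a test, with 3.49 and 1.57 CPM in Control and 2.26 and 1.82 CPM in Fracture. Chondrocyte-like cells measured 1.04 and 0.23 CPM in Control and 2.86 and 2.24 CPM in Fracture and missed the threshold (edgeR adjusted p = 0.056). Osteoblast-like cells (1.33 and 1.27 CPM, then 0.77 and 0.95 CPM) and fibroblast-like cells (3.43 and 0 CPM, then 2.25 and 1.496 CPM) were not called, and endothelial-like and smooth muscle-like cells had 0 to 9 UMIs per preparation. The BMSC-like values rest on 36 and 22 Control and 109 and 88 Fracture UMIs. Chondrocyte-like cells held 33 and 3, then 239 and 210, and thus 61.4% of the Lif UMIs of the Fracture group.

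Il11, a ligand known for its part in bone formation and fibroblast biology, was highest in fibroblast-like cells in both groups. Fibroblast-like cells measured 8.42 and 20.5 CPM in Control and 30.9 and 26.2 CPM in Fracture, a difference that was not called (log2 fold change 1.04 ± 0.40, edgeR adjusted p = 0.14). Chondrocyte-like cells came second in both groups. Here Il11 rose 1.98-fold, from 2.79 and 2.29 CPM to 4.47 and 6.16 CPM (log2 fold change 0.99 ± 0.22, edgeR adjusted p = 0.030). Il11 was called in neither of the 2 clusters that make up this class, at log2 fold changes of 0.41 (edgeR adjusted p = 0.28) in the Col10a1-led and 0.85 (0.11) in the Serpina1a-led cluster. Its Control level was higher in the Col10a1-led cluster (4.65 and 3.47 CPM against 1.18 and 1.25 CPM), which held 1314 of 2716 Control and 11306 of 13905 Fracture cells of the class. BMSC-like cells rose from 0.63 and 0.15 CPM to 3.14 and 1.92 CPM (log2 fold change 2.63 ± 0.61, edgeR adjusted p = 0.023), from 10 and 2 Control UMIs to 30 and 21 Fracture UMIs. For dpMSC-like cells the rise was from 0.90 and 0.23 CPM to 4.88 and 4.03 CPM (log2 fold change 2.99 ± 0.56, edgeR adjusted p = 0.0087). Osteoblast-like cells measured 0.19 and 0.46 CPM in Control and 0.56 and 0.63 CPM in Fracture and were not called (edgeR adjusted p = 0.24), and endothelial-like and smooth muscle-like cells held 0 to 11 UMIs per preparation and were not tested. The fitted folds of these low counts depend on the prior count of the fit.

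Clcf1, which signals through the ciliary neurotrophic factor receptor, was low in every class. In chondrocyte-like cells it rose 1.57-fold, from 1.47 and 1.37 CPM to 2.32 and 2.35 CPM (log2 fold change 0.65 ± 0.15, edgeR adjusted p = 0.036). The opposite was found in endothelial-like cells, where it fell from 11.04 and 11.4 CPM to 7.46 and 6.14 CPM (log2 fold change −0.72 ± 0.16, edgeR adjusted p = 0.031). DESeq2 called neither (adjusted p = 0.13 and 0.079), and leaving out Control preparation 1 lost the chondrocyte-like call (edgeR adjusted p = 0.075). Neither cluster of that class was called, and the direction turned in the Serpina1a-led cluster (log2 fold change −0.23, edgeR adjusted p = 0.66, beside 0.46 and 0.13 in the Col10a1-led cluster). No other class was called for Clcf1, which reached 4.99 and 11.6 CPM in Control and 10.0 and 8.52 CPM in Fracture fibroblast-like cells.

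Lifr, the chain that binds Lif and joins Il6st, fell in all 6 classes and in both subclasses. The fall spanned log2 fold changes of −1.27 to −0.86 over the 6 classes, that is 1.81- to 2.42-fold, with edgeR adjusted p between 0.0017 and 0.019. In BMSC-like cells, where Lifr was highest, it went from 2120 and 1830 CPM to 1068 and 1065 CPM. Osteoblast-like cells followed, from 871 and 953 CPM to 460 and 477 CPM (log2 fold change −0.94 ± 0.08, edgeR adjusted p = 0.0077). In endothelial-like cells Lifr fell from 369 and 380 CPM to 188 and 190 CPM, and in smooth muscle-like cells from 286 and 264 CPM to 137 and 126 CPM. No Control value overlapped a Fracture value in these classes. Chondrocyte-like cells fell from 199 and 207 CPM to 99.6 and 104 CPM (log2 fold change −1.05 ± 0.05, edgeR adjusted p = 0.0017), and fibroblast-like cells, the lowest, from 85.7 and 77.9 CPM to 41.3 and 30.4 CPM.

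The order of the classes for Lifr was the same in both groups, namely BMSC-like, osteoblast-like, endothelial-like, smooth muscle-like, chondrocyte-like and fibroblast-like, and no neighbours in this order overlapped. Of the subclasses, mpMSC-like cells were the higher, at 3862 and 3671 CPM in Control and 2040 and 2023 CPM in Fracture (log2 fold change −0.88 ± 0.10, edgeR adjusted p = 0.0060). The dpMSC-like cells fell from 927 and 1014 CPM to 343 and 419 CPM (log2 fold change −1.29 ± 0.13, edgeR adjusted p = 0.0014). At a clustering resolution of 0.2 that log2 fold change was −0.63 (edgeR adjusted p = 0.015). Erythroid-like cells, which should lack Lifr, moved the other way, with 32.0 and 17.4 plain CPM in Control and 84.3 and 64.3 in Fracture. After each cell was thinned to 1000 UMIs, which left out 304 shallower Control cells and 0 Fracture cells, Lifr was detected in 65.1% and 64.9% of Control and 44.7% and 47.8% of Fracture BMSC-like cells. Among osteoblast-like cells the shares were 52.7% and 56.2% against 38.0% and 37.7%, and among erythroid-like cells 2.98% and 1.35% against 5.21% and 4.58%. With 2 against 2 preparations the two-sided exact permutation test cannot give a p under 0.33, which is the value for each share whose groups do not overlap.

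**Figure D3:**
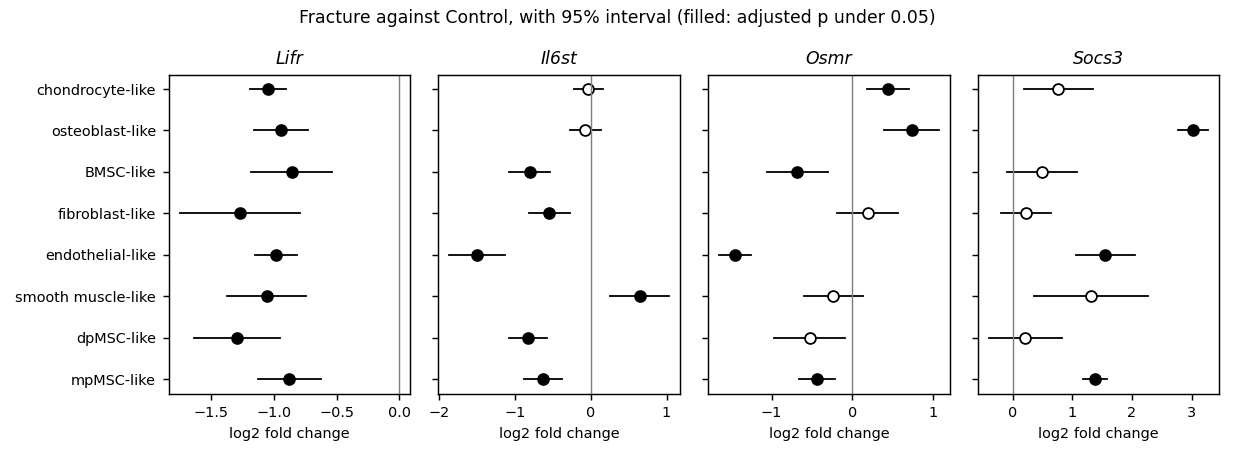
Log2 fold change of Fracture against Control (horizontal axis) for Lifr, Il6st, Osmr and Socs3 in each class and subclass, with the 95% interval of the edgeR fit as a line. Filled points had an adjusted p under 0.05, as all 8 of Lifr did, and Il6st and Osmr have called points on both sides of 0.

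Il6st, the chain shared by the whole family, was highest in endothelial-like cells, where it also showed its steepest fall among the 6 classes. It went from 851 and 1004 CPM to 300 and 357 CPM, a 2.82-fold fall (log2 fold change −1.50 ± 0.14, edgeR adjusted p = 0.0065). BMSC-like cells fell from 197 and 216 CPM to 109 and 122 CPM (log2 fold change −0.80 ± 0.10, edgeR adjusted p = 0.0047), and fibroblast-like cells from 140 and 132 CPM to 96.6 and 100.4 CPM (log2 fold change −0.54 ± 0.11, edgeR adjusted p = 0.034). The fibroblast-like call was lost without the filter on low counts (edgeR adjusted p = 0.066) and at a clustering resolution of 0.2 (0.0502). Smooth muscle-like cells rose instead, from 97.5 and 88.4 CPM to 160 and 130 CPM (log2 fold change 0.65 ± 0.15, edgeR adjusted p = 0.040). That rise was not called without Control preparation 1 (edgeR adjusted p = 0.10), without Control preparation 2 (0.096) or without the filter on low counts (0.095). Chondrocyte-like cells stayed near their level, at 51.5 and 46.2 CPM in Control and 48.6 and 50.7 CPM in Fracture (log2 fold change −0.03, 95% interval −0.22 to 0.17). Osteoblast-like cells measured 48.2 and 49.0 CPM and then 43.6 and 47.9 CPM (log2 fold change −0.07, 95% interval −0.27 to 0.14). The subclasses dpMSC-like (229 and 246 CPM to 122 and 136 CPM) and mpMSC-like (153 and 150 CPM to 89.6 and 104.6 CPM) both fell.

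Osmr, the chain that pairs with Il6st for oncostatin M, fell where it was highest and rose where it was lowest. In endothelial-like cells it fell 2.74-fold, from 160 and 171 CPM to 58.7 and 61.8 CPM (log2 fold change −1.45 ± 0.08, edgeR adjusted p = 0.0053). In BMSC-like cells it fell from 88.4 and 112 CPM to 58.9 and 63.4 CPM (log2 fold change −0.68 ± 0.14, edgeR adjusted p = 0.017). By contrast, Osmr rose in osteoblast-like cells, from 5.20 and 4.73 CPM to 7.60 and 8.78 CPM (log2 fold change 0.74 ± 0.13, edgeR adjusted p = 0.028). It also rose in chondrocyte-like cells, from 30.6 and 25.6 CPM to 39.5 and 39.8 CPM (log2 fold change 0.44 ± 0.10, edgeR adjusted p = 0.030). Of the 2 clusters of that class, the Col10a1-led cluster, which held 11306 of its 13905 Fracture cells, was not called for Osmr (0.02, edgeR adjusted p = 0.91). Smooth muscle-like cells (63.6 and 58.7 CPM, then 50.5 and 52.8 CPM) and fibroblast-like cells (40.5 and 32.1 CPM, then 42.1 and 46.5 CPM) were not called. Of the subclasses, mpMSC-like cells fell from 71.0 and 72.6 CPM to 52.7 and 52.2 CPM (log2 fold change −0.44 ± 0.09, edgeR adjusted p = 0.022), a call lost with the DESeq2 test (adjusted p = 0.10). The dpMSC-like cells went from 99.8 and 130 CPM to 68.8 and 84.9 CPM and missed the threshold (edgeR adjusted p = 0.051). Endothelial-like cells, first in the Control order by plain CPM with 172 ± 8.1 (SD, n = 2), overlapped BMSC-like cells in the Fracture order, at 57.8 ± 1.1 against 57.9 ± 2.7. Osmr was read at 0.26 and 0.57 plain CPM in Control erythroid-like cells and at 3.97 and 4.62 in Fracture erythroid-like cells, a difference similar in CPM to that of osteoblast-like cells. The part of free RNA in that rise was not tested.

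Chondrocyte genes moved with the endothelial-like, smooth muscle-like, fibroblast-like and BMSC-like values. The 7 chondrocyte markers, none of them at 0, summed to 2057 and 925 plain CPM in Control and 14776 and 15066 in Fracture endothelial-like cells, and to 1401 and 137 against 12341 and 4918 in smooth muscle-like cells. The endothelial markers themselves stood at 8609 and 8149 against 6466 and 6494 plain CPM in endothelial-like cells, and the smooth muscle markers at 37422 and 38055 against 19214 and 21239 in smooth muscle-like cells. Their part in the results for Il6st, Osmr, Lifr, Il6 and Socs3 was not tested.

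Il6ra, the chain that binds Il6, fell in 3 classes and was near the limit of detection in osteoblast-like cells. In fibroblast-like cells it fell 5.18-fold, from 19.9 and 15.03 CPM to 2.82 and 4.37 CPM (log2 fold change −2.37 ± 0.30, edgeR adjusted p = 0.015). Smooth muscle-like cells fell from 13.1 and 16.4 CPM to 2.59 and 2.61 CPM, the latter from 4 UMIs in each preparation (log2 fold change −2.44 ± 0.39, edgeR adjusted p = 0.016). The fall in chondrocyte-like cells was smaller, from 8.75 and 10.5 CPM to 6.36 and 7.06 CPM (log2 fold change −0.57 ± 0.13, edgeR adjusted p = 0.032). Endothelial-like cells measured 6.82 and 5.53 CPM in Control and 7.65 and 11.3 CPM in Fracture and were not called (edgeR adjusted p = 0.12), but they ranked highest of the 6 classes in Fracture. Osteoblast-like cells held 9, 2, 4 and 8 UMIs and were not tested. BMSC-like cells held 14, 16, 5 and 9 UMIs and were not called (log2 fold change −0.56, 95% interval −1.66 to 0.54). Outside the stroma, monocyte-like cells held the most Il6ra, at 43.7 and 53.9 plain CPM in Control. In Fracture they numbered 12 and 13 cells with 3 and 1 Il6ra UMIs, too few to give a level.

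Socs3, induced by STAT factors downstream of these receptors, rose most in osteoblast-like cells. It measured 48.4 and 53.8 CPM in Control and 429 and 394 CPM in Fracture, an 8.15-fold rise (log2 fold change 3.03 ± 0.10, edgeR adjusted p = 0.0023). Osteoblast-like cells were thus the lowest class for Socs3 in Control and the highest in Fracture, without overlap with their neighbours in either order. Endothelial-like cells rose from 124 and 84.6 CPM to 299 and 311 CPM (log2 fold change 1.55 ± 0.19, edgeR adjusted p = 0.0092). Among the subclasses, mpMSC-like cells rose from 169 and 160 CPM to 440 and 409 CPM (log2 fold change 1.38 ± 0.08, edgeR adjusted p = 0.0018). For dpMSC-like cells, at 233 and 385 CPM and then 327 and 363 CPM, the groups overlapped (edgeR adjusted p = 0.50). The values of chondrocyte-like cells (242 and 157 CPM, then 361 and 341 CPM; edgeR adjusted p = 0.052) and of smooth muscle-like cells (158 and 69.6 CPM, then 321 and 246 CPM; edgeR adjusted p = 0.063) did not overlap between groups but missed the threshold. BMSC-like (204 and 314 CPM, then 362 and 354 CPM) and fibroblast-like cells (176 and 131 CPM, then 193 and 186 CPM) did not overlap between groups either. They were not called (edgeR adjusted p = 0.13 and 0.39).

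After thinning to 1000 UMIs, Socs3 was detected in 5.24% and 4.53% of Control and 29.9% and 26.0% of Fracture osteoblast-like cells. The shares were 9.53% and 5.56% against 19.8% and 20.6% in endothelial-like cells and 12.97% and 11.2% against 29.8% and 27.2% in mpMSC-like cells. Erythroid-like cells moved in the same direction at a lower level, with 0.47% and 0.28% against 4.74% and 3.87% of cells and 5.68 and 1.83 against 57.5 and 57.9 plain CPM. The part of free RNA in the Socs3 values was not tested. Over the 54 pairs of member and class, the thinned shares of the groups did not overlap in 25, of which 11 were higher and 14 lower in Fracture. With no thinning 39 did not overlap (25 higher and 14 lower), after thinning to 3000 UMIs 35 (18 and 17), and with doublets left out 33 (14 and 19). Leaving out doublets also changed the random draw for the cells that stayed. The share over all genes was not counted, and a pair without overlap has p = 0.33 in the exact permutation test. These counts are therefore not a result about the members.

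The 2 clusters behind the chondrocyte-like class differed in their values. The cluster led by Col10a1, the collagen of hypertrophic cartilage, held 1314 Control and 11306 Fracture cells, and the cluster led by Serpina1a held 1402 and 2599. In the Serpina1a-led cluster Osmr rose from 32.4 and 26.3 CPM to 81.8 and 82.9 CPM (log2 fold change 1.47 ± 0.11, edgeR adjusted p = 0.0090) and Socs3 from 307 and 198 CPM to 876 and 820 CPM (log2 fold change 1.73 ± 0.22, edgeR adjusted p = 0.020). In the Col10a1-led cluster Osmr measured 30.1 and 26.5 CPM in Control and 29.6 and 30.04 CPM in Fracture (log2 fold change 0.02 ± 0.09) and Socs3 182 and 125 CPM, then 244 and 236 CPM (edgeR adjusted p = 0.077). Lifr was lower in Fracture without overlap in both clusters. It fell in the Col10a1-led cluster, from 152 and 146 CPM to 73.6 and 78.9 CPM (log2 fold change −1.02 ± 0.07, edgeR adjusted p = 0.0019), and was not called in the Serpina1a-led cluster, at 251 and 279 CPM and then 212 and 214 CPM (log2 fold change −0.34 ± 0.08, edgeR adjusted p = 0.057). Il6ra fell in the Col10a1-led cluster (log2 fold change −0.85, edgeR adjusted p = 0.027), as did Il6, from 4.06 and 0.95 CPM to 0.27 and 0.19 CPM (log2 fold change −3.74 ± 0.64, edgeR adjusted p = 0.017). The 4 basophil genes moved with that Il6 value, since they summed to 438 and 212 plain CPM in Control and 2.73 and 6.88 in Fracture over the whole chondrocyte-like class, and their part in it was not tested. Clcf1 and Il11 were called in neither cluster. Of all tested genes 28.6% were called in the Col10a1-led cluster and 14.1% in the Serpina1a-led cluster, and the difference between the clusters was not tested.

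**Figure D4:**
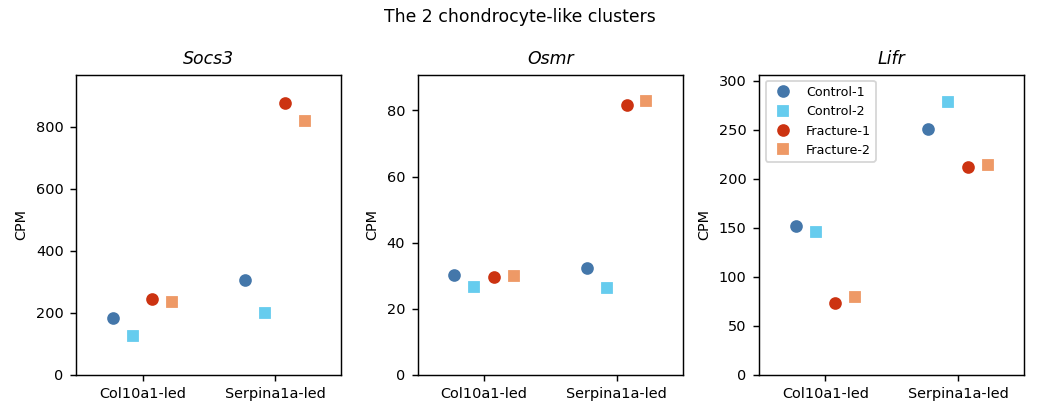
CPM of Socs3, Osmr and Lifr (vertical axes, starting at 0) in the Col10a1-led and the Serpina1a-led cluster, with 1 point per preparation. In the Serpina1a-led cluster the Fracture values of Osmr (81.8 and 82.9) and Socs3 (876 and 820) lie far above the Control values, and in the Col10a1-led cluster Lifr is lower in Fracture (73.6 and 78.9 against 152 and 146).

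Whether the fracture effect of a class departed from the mean effect of the other 5 classes was tested in a fit over all 24 sums, with the preparation as a block. The spread of each gene was pooled over the classes here, whereas the tests within a class kept them apart. The p-values of this fit depend on that pooling and still rest on 2 preparations per group. Of the 54 pairs 19 passed, 8 with a higher and 11 with a lower effect, and they involved 7 of the 9 members. The pairs of a member are linked, since each class also enters the mean that the others are set against. The share of all genes that passed was 33.5% for BMSC-like, 32.3% for chondrocyte-like, 20.4% for endothelial-like, 13.8% for fibroblast-like, 21.8% for osteoblast-like and 16.3% for smooth muscle-like cells. In BMSC-like and chondrocyte-like cells the members passed at near the share of all genes. Endothelial-like cells stood apart for Osmr (difference of log2 fold changes −1.55 ± 0.12, edgeR adjusted p = 2.12e-07) and Il6st (−1.35 ± 0.11, edgeR adjusted p = 2.45e-07), and osteoblast-like cells for Socs3 (2.17 ± 0.26, edgeR adjusted p = 2.15e-05). No class passed for Lifr. Its departures ran from −0.26 in fibroblast-like to 0.17 in BMSC-like cells, and their 95% intervals lay within −0.55 to 0.40. Smooth muscle-like cells passed for Il6 (2.14 ± 0.44, edgeR adjusted p = 0.0025), but without Control preparation 1, whose other classes held the higher Il6 values described above, the difference was 0.30 with an edgeR adjusted p of 0.96. The lower Il6 effect of chondrocyte-like cells (−2.05 ± 0.39, edgeR adjusted p = 0.0005) likewise did not pass without that preparation (−0.81, edgeR adjusted p = 0.57).

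Other genes of the pathway were read from lists of ligands, receptors, kinases, factors, inhibitors and target genes, 40 genes of which 39 were in the tables. Osteoblast-like cells moved in a single direction, with 16 of 30 tested pathway genes higher and 0 lower, where 16.5% of all genes were called. Of 12 target genes 11 rose, with a median log2 fold change of 1.82 beside a median of −0.0047 over all genes tested. Among them were Bcl3, an NF-kappaB cofactor (2.20 and 2.29 CPM, then 15.9 and 15.8 CPM), and Timp1, an inhibitor of metalloproteinases (227 and 197 CPM, then 1031 and 1005 CPM). Chondrocyte-like cells, with 37.4% of all genes called, had 12 pathway genes higher and 5 lower of 34, with 8 of 12 target genes higher, Pim1 (3.51-fold) and Cebpb (2.67-fold) among them, and with the ciliary neurotrophic factor receptor Cntfr lower, from 14.5 and 13.5 CPM to 1.61 and 1.56 CPM. The ligand Ctf1 (log2 fold change −1.50) fell there as well. Osm, another ligand, was lower too (log2 fold change −5.04), with 4.74 and 1.76 CPM in Control beside 0.11 and 0.11 CPM in Fracture. In this class the 4 basophil genes also dropped, with sums of 438 and 212 plain CPM (Control) and 2.73 and 6.88 (Fracture). Their part in the Osm value was not tested.

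BMSC-like cells had 8 pathway genes higher and 13 lower of 33, where 51.8% of all genes were called. All 3 kinases (Jak1, Jak2 and Tyk2) fell, with a median log2 fold change of −0.53 beside −0.026 over all genes tested, and so did the factors Stat3, Stat5a and Stat5b. Stat5a fell from 107 and 143 CPM to 27.3 and 24.8 CPM (log2 fold change −2.24 ± 0.17, edgeR adjusted p = 0.0021), and Cish, an inhibitor induced by it, fell 5.02-fold, as did the receptor Il31ra, by 7.58-fold. In the same cells Timp1 rose 6.01-fold and Gadd45g, a stress response gene, 1.99-fold. Of 12 target genes 5 rose and 2 fell (Bcl6 and Cebpd) in BMSC-like cells. In dpMSC-like cells 5 rose and 4 fell (Bcl6, Pim1, Cebpd and Bcl3). In dpMSC-like cells, with 9 higher and 13 lower of 31 beside 53.6% of all genes and with their marker sum lower as given above, Timp1 rose 37.3-fold and Socs1 2.37-fold, and Il31ra (11.8-fold), Cish (6.45-fold) and Stat5a (5.47-fold) fell. The mpMSC-like cells had 7 higher and 6 lower of 27, beside 25.7% of all genes, with Timp1 (2.85-fold) and Junb (2.74-fold) among those higher and Stat5b (2.61-fold), Bcl6 (2.49-fold) and Socs2 (2.06-fold) among those lower.

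In endothelial-like cells 9 pathway genes were higher and 6 lower of 32, beside 36.2% of all genes. The kinases Jak1 (432 and 538 CPM, then 284 and 315 CPM) and Tyk2 (1.61-fold) and the inhibitor Cish (2.81-fold) fell, and the target genes Timp1 (12.0-fold) and Icam1 (2.77-fold), an adhesion molecule, were among 6 of 12 that rose. Fibroblast-like cells had 4 higher and 4 lower of 28, beside 16.4% of all genes, with Bcl3 up 3.93-fold, Timp1 up 2.39-fold and Cntfr down from 10.6 and 8.20 CPM to 1.27 and 0.69 CPM. Bcl6, a transcriptional repressor, fell 3.57-fold and Ctf1 2.21-fold in the same cells. Smooth muscle-like cells had 4 higher and 3 lower of 26, near the 22.1% of all genes called, among them the inhibitor Socs1, up from 4.99 and 2.35 CPM to 16.8 and 19.6 CPM. Timp1 (21.6-fold) and Bcl3 (3.24-fold) rose there, and Stat5b (3.32-fold), Pias1 (2.68-fold), an inhibitor of STAT factors, and Bcl6 (2.40-fold) fell.

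Immediate early and heat shock genes, which tissue dissociation is known to induce, rose in some classes, both where Socs3 was called and where it was not. Of 12 such genes, 9 rose in osteoblast-like cells (median log2 fold change 1.65), 10 in BMSC-like cells (1.34), 12 in dpMSC-like cells (1.88) and 7 in mpMSC-like cells (1.28), where 16.5%, 51.8%, 53.6% and 25.7% of all tested genes were called. Socs3 rose in osteoblast-like and mpMSC-like cells but was not called in BMSC-like (log2 fold change 0.49, edgeR adjusted p = 0.13) or dpMSC-like cells (0.21, edgeR adjusted p = 0.50). Fos went from 609 and 588 CPM to 1949 and 1986 CPM in osteoblast-like cells, where Socs3 rose, and Atf3 from 18.2 and 25.2 CPM to 220 and 235 CPM. In chondrocyte-like cells 3 rose and 2 fell, in endothelial-like cells 3 rose and 1 fell, in fibroblast-like cells 1 rose and 1 fell, and in smooth muscle-like cells 0 rose and 1 fell. Endothelial-like cells had log2 fold changes of 2.48 for Atf3 and 1.91 for Ier3, which rose, and of 1.02 for Fos, which was not called (edgeR adjusted p = 0.19). The part of these genes in the results was not tested.

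Genes with the pattern closest to each member were sought over the 24 sums of class and preparation, as the Pearson correlation of log2(CPM + 1) among 8399 genes that reached 20 CPM in a class. The sums share libraries, so the values are a description. Il6 ran closest to the mural cell genes Rgs5 (r = 0.81) and Tagln (0.80), and to Pkig (0.79). Il11 ran closest to Ccdc6 (0.94), Osr2 (0.93) and Camk1d (0.93), and Il6st to Dnm2 (0.96), Jup (0.95) and Npr1 (0.95). Lifr followed Tmem176a (0.92), Adamts10 (0.91) and Tnfrsf19 (0.90), and Osmr followed Dip2a (0.89), Fkbp5 (0.88) and Slc6a6 (0.88). The closest to Socs3 were Rbp4 (0.84), Cebpd (0.84) and Socs1 (0.79), of which the latter pair belongs to the lists of target genes and inhibitors above.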

How the data were processed

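The data came from 8 droplet libraries of single-cell RNA, 2 from each of 2 Control and 2 Fracture preparations of bone stromal cells. Each deposited table gives unnormalised UMI counts by gene and barcode, made by the authors from reads aligned to the mm10 genome. The submitters' processing notes name bcl2fastq 2.19.1.403, UMI-tools 1.0.0, STAR 2.7.3a and featureCounts 1.6.4, whereas the published methods name STARsolo and EmptyDrops, so which route selected the deposited barcodes is not settled. The strand setting of the counting is not given in the sources used here.

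Cells with 500 to 6000 genes and at most 25% mitochondrial UMIs were kept, with genes found in at least 3 cells. Libraries were integrated in Seurat 5.3.0 (R 4.3.3) with 30 dimensions and 1922 variable genes, from which the members, the other pathway genes and cell cycle genes had been left out, and clustered on 12 components (13 for mesenchymal cells clustered again), and clusters were named from marker lists. Doublets were scored with scrublet in scanpy 1.11.5 with 6% set as the expected rate. It marked 722 cells (1.59%), which were left out in 1 alternative only. Counts were summed per class and preparation for classes with 20 or more cells in each preparation, and tested with edgeR 4.0.16 (quasi-likelihood, TMM, filterByExpr, Benjamini-Hochberg, calls at an adjusted p under 0.05). Differences between classes were tested as the effect of a class minus the mean of the other 5, with the preparation as a block. Shares of cells were counted after thinning to 1000 UMIs. Alternatives were the DESeq2 1.42.0 test and size factors, no filter, a resolution of 0.2, cells of at least 3000 UMIs, doublets left out, a replicate block and leaving out each preparation. The tests were also run on simulated counts. Promoters came from RefSeq and coordinates from GENCODE on GRCm38. Python 3.11.15, numpy 2.4.6, pandas 2.3.3, scipy 1.17.1 and matplotlib 3.10.9 were used.

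The members, gene lists, marker lists and tests were chosen with earlier results of these data known. Values were read for all members in every class, and of the pathway lists the 3 called genes with the highest and the 3 with the lowest fold change in each class were named, except genes that are not reported here.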

Additional observations from a re-analysis of the deposited data

Results flagged for a closer look

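The fracture effect of a class departed from the mean effect of the other 5 classes, at an edgeR adjusted p under 0.05, in 19 pairs of member and class. The values are differences of log2 fold changes, with positive values for a higher effect in the named class. Of all genes, 13.8% (fibroblast-like) to 33.5% (BMSC-like) passed, with 32.3% in chondrocyte-like cells. The members in BMSC-like and chondrocyte-like cells passed at near those shares, so their pairs are not a result about the members. Il6st differed in BMSC-like (−0.53), chondrocyte-like (0.39), osteoblast-like (0.39), endothelial-like (−1.35) and smooth muscle-like cells (1.25). Within chondrocyte-like and osteoblast-like cells Il6st was not called (log2 fold change −0.03 and −0.07). Their departures arise against a mean that holds the falls of other classes. Osmr differed in BMSC-like (−0.63), chondrocyte-like (0.69), osteoblast-like (1.10) and endothelial-like cells (−1.55). Socs3 differed in BMSC-like (−0.93), fibroblast-like (−1.15) and osteoblast-like cells (2.17). Il6ra differed in fibroblast-like (−1.87), endothelial-like (1.71) and smooth muscle-like cells (−1.90). Fracture smooth muscle-like cells held 4 Il6ra UMIs in each preparation. The classes set against included osteoblast-like cells (9, 2, 4 and 8 UMIs) and BMSC-like cells (14, 16, 5 and 9). Within endothelial-like cells Il6ra was not called (log2 fold change 0.62, edgeR adjusted p = 0.12). Il6 differed in chondrocyte-like (−2.05) and smooth muscle-like cells (2.14), and both values rested on Control preparation 1, without which they were −0.81 and 0.30 (edgeR adjusted p = 0.57 and 0.96). Clcf1 differed in endothelial-like cells (−1.25) and Lif in osteoblast-like cells (−2.88), the latter from 15 to 41 UMIs per preparation. The classes it was set against included smooth muscle-like cells, with 0 or 1 Lif UMIs per preparation, and endothelial-like cells, with 2 to 9. Within osteoblast-like cells Lif was not called (log2 fold change −0.57, edgeR adjusted p = 0.19). The groups of 2 preparations were too small for a search for outlying samples.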

How the results depend on the processing

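Calls rested on 2 preparations per group. Of 34 member calls over classes and subclasses, 6 were kept in each alternative listed in the processing section. Leaving out either Fracture preparation lost most calls, where the lone preparation was assumed to vary like the Control group. These fits also lost most calls over all genes in every class but dpMSC-like. The losses and the counts that follow are therefore not a result about the members. Leaving out each preparation in turn gave 1 to 8 called members in chondrocyte-like, 0 to 4 in osteoblast-like, 2 to 6 in BMSC-like, 0 to 5 in fibroblast-like, 0 to 7 in endothelial-like, 0 to 4 in smooth muscle-like, 3 to 8 in dpMSC-like and 0 to 5 in mpMSC-like cells, and 10 to 23 differences between classes. Values that were not called changed sign in these fits, with log2 fold changes of −2.13 to 1.25 for Il6, −0.10 to 0.052 for Il6st in chondrocyte-like cells, −1.06 to 1.59 for Il6 in osteoblast-like cells, −0.42 to 0.82 for Clcf1 and −0.95 to 6.42 for Lif in fibroblast-like cells, −0.11 to 0.61 for Socs3 in dpMSC-like cells and −0.32 to 0.048 for Clcf1 in mpMSC-like cells. The DESeq2 test lost 4 calls, no filter 3 and the resolution of 0.2 lost 2, while DESeq2 size factors, doublets left out and cells of at least 3000 UMIs lost 0. Without the filter Il6st in chondrocyte-like cells was 0.022. The replicate block lost 8 calls and gained 3, leaving 1 of 3 in fibroblast-like cells. The lost calls were Clcf1 and Il11 in chondrocyte-like, Osmr in osteoblast-like, Il6ra and Il6st in fibroblast-like, Clcf1 in endothelial-like, Il6st in smooth muscle-like and Il6 in dpMSC-like cells. Deviations of same-numbered preparations correlated by 0.010 to 0.058. With 2 preparations per group, this correlation cannot tell whether the numbers pair them, so the block stays a possible design. Without the block, 5 of the 19 differences between classes were lost (Il6 in chondrocyte-like and smooth muscle-like, Il6st and Lif in osteoblast-like and Socs3 in BMSC-like cells). In an analysis chosen after seeing the data, the Col10a1-led cluster alone gave 3 called members and the Serpina1a-led cluster 2, the latter with Clcf1 at −0.23, Il6 at 0.49 and Il6st at 0.28. With no thinning, 39 shares did not overlap between groups, beside 25, and the share over all genes was not counted. The causes of these changes were not tested. In most classes Il6, Lif, Il11, Clcf1 and Il6ra had under 100 UMIs per preparation, which limits what can be detected for them.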
